A study of Homo sapiens with 4 samples.

Results

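The 52 genes described here act in the repair of DNA double-strand breaks and of DNA interstrand crosslinks. They were taken by gene name from the deposited count table, which holds 60675 gene rows, and each name matched 1 row. The libraries come from HT1080, a human fibrosarcoma cell line grown in culture, and carry a KDAC8 knockout. HDAC8 encodes KDAC8, a lysine deacetylase whose best-known substrate is the SMC3 subunit of cohesin, the ring that also holds sister chromatids together for repair. The study has 1 group, the KDAC8 knockout, with 4 replicate libraries of rRNA-depleted total RNA. Parental or control cells were not analysed here, so the values are levels in knockout cells and the spread between libraries, and nothing here shows an effect of the knockout. The labels do not say how the knockout was made, whether the cells are 1 clone, or whether each replicate was its own culture. Tests between libraries therefore measure a spread that may be technical.

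A double-strand break can be repaired along several routes. In end joining, the Ku heterodimer binds the ends, recruits the DNA-dependent kinase, and a ligase complex seals them. In homologous recombination, nucleases resect the ends to single strands, the BRCA proteins prepare those strands for pairing, and the sister chromatid is copied, which limits this route to the S and G2 phases. Crosslinks that tie both strands together are handled by the Fanconi anaemia proteins, which mark the stalled fork by ubiquitin and pass the resulting break to recombination. Proliferating cells express these genes, and many of them are known to peak with DNA replication.

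Total counts were 39454210 to 45828807 per library. HDAC8 itself had 80, 89, 95 and 107 counts in replicates 1 to 4, which is no check of the knockout, since counts were summed over all exons. All 8 mesenchymal markers were detected at 1 CPM (counts scaled to the effective library size) or more in all 4 libraries, with VIM at 4701 ± 283 CPM (SD, n = 4). Of 4 epithelial markers 1 was detected (CLDN4, 2.49 CPM), while EPCAM, CDH1 and KRT5 had 0 counts in every library. A count of 0 allows a level of up to 0.0176 CPM over 4 libraries. Of the 4 haematopoietic and 3 endothelial markers 0 were detected, with summed levels of 0.375 to 0.899 and 0.594 to 0.866 CPM per library. Germ cells use the same recombination machinery in meiosis, and of 17 germ cell genes 2 were detected, MSH5 at 9.80 ± 1.06 CPM and STAG3 at 1.89 ± 0.466 CPM. SYCP3 was next at 0.614 ± 0.105 CPM, and 8 had 0 counts (SPO11, HORMAD1, HORMAD2, SYCP1, SPATA22, PRDM9, DDX4 and DAZL).

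All 52 repair genes were detected, against 58.7% of protein-coding genes in the table. Their median level was 32.2 CPM, next to 32.9 CPM over the 11566 detected protein-coding genes. Per kilobase of annotated exon, the scale on which genes are compared with each other below, the medians were 5.86 and 6.32 CPM. In these bulk libraries fewer cells of a type and less RNA per cell cannot be told apart, so a low level may belong to all cells or to those in 1 phase of the cycle. The levels spanned 217.5 times, from XRCC6 at 135.7 ± 6.97 CPM per kilobase of exon to RAD51B at 0.624 ± 0.0589. Per kilobase of coding sequence the span was 95.5 times, from XRCC5 at 278 to SLX4 at 2.92 CPM. XRCC6, XRCC5 and PRKDC, the 3 genes of the DNA-dependent protein kinase, stood apart from the other 49. Together they held 49.3% of all CPM of the set, and the lowest of them exceeded the next gene, NBN, by 3.73 times per kilobase of exon and by 1.71 times per kilobase of coding sequence.

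**Figure D1:**
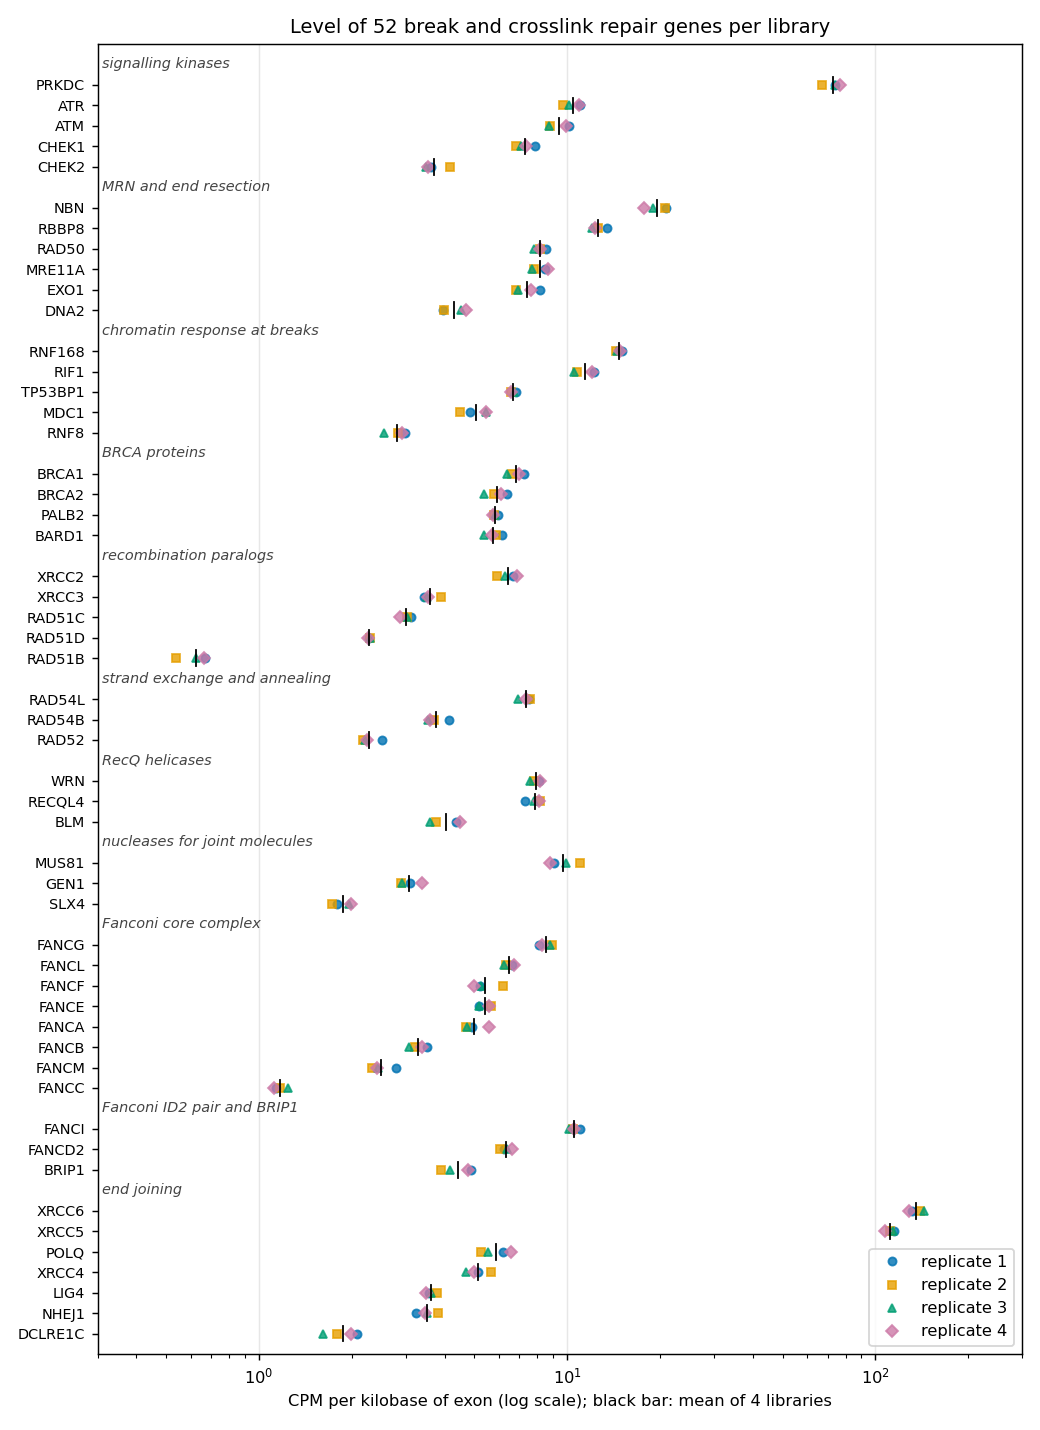
Level of each of the 52 genes in CPM per kilobase of exon (log axis), grouped by role and ordered by mean within a role. Symbols are the 4 libraries and black bars their mean. XRCC6, XRCC5 and PRKDC lie above 60 CPM per kilobase, all other genes below 25, and the 4 libraries of a gene lie close together against the distance between genes.

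Among the signalling kinases, PRKDC, the catalytic subunit that Ku activates at a break, had 1138, 1034, 1144 and 1185 CPM in replicates 1 to 4. Replicate 2 was its lowest library. ATM, the kinase that answers double-strand breaks, had 242, 211, 209 and 237 CPM, high in replicates 1 and 4 and low in 2 and 3. ATR, its counterpart at single-stranded DNA and stalled forks, had 138, 121.5, 127 and 136 CPM with the same 2 libraries high. Per kilobase of exon, ATR (10.5 ± 0.62 CPM) and ATM (9.38 ± 0.716 CPM) overlapped between libraries and ranked at the 66.6th and 63.2nd percentile of detected protein-coding genes. CHEK1, the effector of ATR, had 51.6, 44.6, 46.5 and 48.1 CPM. CHEK2, the effector of ATM, was lower at 16.3, 18.8, 15.6 and 15.9 CPM, with replicate 2 above the rest. On the scale per kilobase CHEK1 was at 7.27 and CHEK2 at 3.71 CPM, and no library of CHEK2 reached the lowest of CHEK1. All 5 kinases varied between libraries by more than counting noise, as did 59.2% of all genes tested and 73.5% of those with at least the mean count of RAD51B, the member with the fewest counts. The adjusted p in a chi-square test of equal shares ran from 9.4e-99 for PRKDC to 0.0026 for CHEK2. CHEK1 did not pass without replicate 1 (adjusted p = 0.115), nor CHEK2 without replicate 2 (adjusted p = 0.726).

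The MRN complex of MRE11A, RAD50 and NBN tethers broken ends and starts resection. NBN, the subunit that binds ATM, had 128, 128, 117 and 109 CPM, and replicates 3 and 4 were its lower libraries. RAD50, the ATPase that bridges the ends, had 83.7, 79.9, 76.1 and 80.0 CPM. MRE11A, the nuclease, had 65.1, 59.9, 59.1 and 66.5 CPM. NBN exceeded both partners in every library per kilobase of exon, at 19.6 ± 1.52 CPM, while RAD50 (8.18 ± 0.318) and MRE11A (8.15 ± 0.482) lay on top of each other. RBBP8, also called CtIP, which switches on the MRE11A nuclease, had 68.7, 64.0, 61.2 and 62.9 CPM, or 12.6 per kilobase. The long-range nucleases EXO1 and DNA2 had fewer CPM. Per kilobase of exon, EXO1 (7.39) overlapped MRE11A between libraries, and DNA2 (4.29) lay below both. EXO1 had 33.9, 28.4, 28.7 and 31.5 CPM and DNA2 19.3, 19.3, 22.0 and 22.8 CPM. DNA2 was low in replicates 1 and 2, while EXO1 was low in 2 and 3. The 6 genes of this step all varied, against 73.5% of genes with at least the mean count of RAD51B. RAD50 had the weakest evidence (chi-square test, adjusted p = 0.0033). RAD50 and RBBP8 lost the call without replicate 1 (adjusted p = 0.115 and 0.351).

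At the chromatin around a break, MDC1 reads phosphorylated H2AX, and the ubiquitin ligases RNF8 and RNF168 then write the mark that TP53BP1 binds. RIF1 acts with TP53BP1 to hold back resection. RIF1 had 222, 196, 192 and 218 CPM, high in replicates 1 and 4. TP53BP1 had 88.3, 85.6, 87.6 and 85.5 CPM and RNF168 80.5, 77.0, 77.7 and 79.4 CPM. Variation above counting noise was not detectable for these last 2 genes (chi-square test, adjusted p = 0.454 and 0.338). They did pass when library sizes were plain totals (adjusted p = 0.0025 and 7.2e-05). MDC1 had 39.1, 36.3, 44.0 and 44.0 CPM, lower in replicates 1 and 2 than in 3 and 4 (adjusted p = 2.9e-09, chi-square test). RNF8, the first ligase of the cascade, had 19.5, 18.6, 16.8 and 19.1 CPM. Its second ligase RNF168 stood at 14.7 ± 0.292 CPM per kilobase of exon and RNF8 at 2.81 ± 0.186. RNF8 varied by the chi-square test (adjusted p = 0.025), though not without replicate 3 (adjusted p = 0.567).

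The 4 BRCA genes were close to each other per kilobase of exon, at 6.81 ± 0.389 CPM for BRCA1, 5.91 ± 0.446 for BRCA2, 5.84 ± 0.0865 for PALB2 and 5.77 ± 0.324 for BARD1. Neighbours in that order overlapped between libraries. Per kilobase of coding sequence they lay further apart, from BRCA2 at 7.07 to BARD1 at 15.0 CPM. BRCA1 and BARD1 form a ubiquitin ligase that promotes resection, PALB2 bridges BRCA1 to BRCA2, and BRCA2 acts at the resected strand. BRCA1 had 66.8, 60.9, 58.6 and 63.9 CPM, and BARD1 had 37.3, 35.6, 32.6 and 34.5 CPM. BRCA2 had 78.6, 71.0, 65.7 and 74.6 CPM, and PALB2 28.3, 27.5, 27.8 and 27.4 CPM. Replicate 1 was the highest and replicate 3 the lowest library for BRCA1, BARD1 and BRCA2, while PALB2 differed by less than 1 CPM between libraries. The first 3 varied (chi-square test, adjusted p from 1.0e-10 to 0.0056) and PALB2 did not pass (adjusted p = 0.88). BARD1 lost the call without replicate 1 and without replicate 3 (highest adjusted p = 0.0882).

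A family of paralogous recombination genes forms 2 complexes, one of RAD51B, RAD51C, RAD51D and XRCC2, the other of RAD51C and XRCC3. XRCC2 had 32.4, 28.7, 30.6 and 33.4 CPM and XRCC3 25.8, 29.2, 26.4 and 26.5 CPM. These 2 genes had opposite extremes, since replicate 2 was the lowest library of XRCC2 and the highest of XRCC3. Exons of XRCC3 share 76.7% of their bases with KLC1 (123 CPM) on the other strand. The part of KLC1 reads in the values of XRCC3 was not tested. RAD51C had 18.9, 18.3, 18.4 and 17.5 CPM, and RAD51D had 25.7, 26.0, 25.9 and 25.6 CPM, the narrowest range of the 52 genes (1.02 times). RAD51B was the lowest gene of the set in CPM, with 5.00, 4.04, 4.68 and 4.94 CPM from 202, 170, 212 and 209 counts. It ranked at the 6.67th percentile per kilobase of exon. XRCC2 and XRCC3 varied by the chi-square test (adjusted p = 0.0013 and 0.02), and neither did without replicate 2 (adjusted p = 0.215 and 0.885). XRCC3 also lost the call with plain totals. RAD51B, RAD51C and RAD51D did not pass (adjusted p = 0.211, 0.565 and 0.977).

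At the next step, RAD54L and RAD54B are the motor proteins that drive strand exchange, and RAD52 anneals single strands. RAD54L had 24.1, 24.3, 22.3 and 23.7 CPM, or 7.35 ± 0.29 per kilobase of exon. RAD54B had 22.0, 19.6, 18.9 and 19.0 CPM, or 3.74 ± 0.277 per kilobase, and RAD52 10.5, 9.09, 9.27 and 9.37 CPM, or 2.28 ± 0.157. Replicate 1 was the highest library of RAD54B and RAD52. Of the 3 genes only RAD54B passed the chi-square test (adjusted p = 0.0077), and it did not without replicate 1 (adjusted p = 0.763).

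Joint molecules are undone by RecQ helicases or cut by nucleases. WRN, the helicase missing in Werner syndrome, had 45.5, 44.0, 42.7 and 46.0 CPM, and RECQL4 had 30.8, 34.6, 33.1 and 34.3 CPM. BLM, which dissolves double Holliday junctions, had 29.1, 25.1, 24.0 and 30.1 CPM, so that replicates 1 and 4 lay clear of 2 and 3. Per kilobase of exon WRN (7.91 CPM) and RECQL4 (7.84 CPM) overlapped and BLM (4.06 CPM) lay below both. MUS81, a nuclease subunit that cuts branched DNA, had 49.8, 60.1, 54.2 and 48.3 CPM with its peak in replicate 2. Its exons share 13.9% of their bases with CFL1 (753 CPM) on the other strand, and the part of CFL1 reads in these values was not tested. GEN1, a Holliday junction resolvase, had 36.7, 34.1, 34.5 and 40.1 CPM, and SLX4, the scaffold that gathers nucleases, 15.4, 14.8, 16.9 and 17.1 CPM. BLM and MUS81 varied with ranges of 1.25 times each (chi-square test, adjusted p = 2.2e-08 and 1.7e-13). WRN did not pass (adjusted p = 0.121). RECQL4 and SLX4 passed narrowly (adjusted p = 0.022 and 0.037) and each lost the call under several alternatives (highest adjusted p = 0.522 and 0.282). GEN1 lost its call without replicate 4 (adjusted p = 0.179).

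The Fanconi core complex attaches ubiquitin to the pair of FANCD2 and FANCI. FANCL, its ubiquitin ligase, had 16.0, 15.3, 15.0 and 16.2 CPM. FANCM, the translocase that anchors the complex to DNA, had 23.6, 19.7, 20.6 and 20.4 CPM with replicate 1 on top. FANCG, a scaffold subunit, led the complex per kilobase of exon at 8.53 ± 0.391 CPM, from 29.3, 32.3, 31.7 and 30.0 CPM. FANCA, which pairs with FANCG, had 47.7, 45.6, 45.9 and 54.4 CPM, and replicate 4 stood above the other 3. FANCF, an adaptor with a single exon, had 15.3, 18.3, 15.5 and 14.7 CPM, and replicate 2 stood above. FANCC was the last of the complex per kilobase of exon at 1.17 ± 0.0555 CPM, with 14.5, 15.0, 15.9 and 14.4 CPM over a long exonic length of 12809 bases. Per kilobase of coding sequence FANCC was at 8.94 CPM, and FANCM (3.43) and FANCB (4.59) were lower. FANCB and FANCE had 11.8 ± 0.686 and 14.5 ± 0.704 CPM. Of the 8 core genes 3 varied, FANCA, FANCF and FANCM (chi-square test, adjusted p = 7.4e-09, 4.3e-04 and 0.0015). Each of these calls rested on 1 library, as FANCA did not pass without replicate 4 (adjusted p = 0.429), FANCF without replicate 2 (0.473) or FANCM without replicate 1 (0.712). Of genes with at least the mean count of RAD51B 73.5% varied, with no upper limit on count. The core genes had mean counts of 502 to 2057, so that share was not matched to their depth.

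FANCI had 85.6, 81.0, 79.0 and 81.5 CPM and FANCD2 52.1, 50.6, 53.5 and 55.3 CPM, so the clamp partners did not share their highest library. BRIP1, the helicase also known as FANCJ that binds BRCA1, had 39.0, 31.0, 33.3 and 38.01 CPM, with replicates 1 and 4 above 2 and 3. BRIP1 had the second widest range of the 52 genes, 1.26 times, and varied under every alternative (chi-square test, adjusted p = 2.4e-10). FANCI and FANCD2 passed the test by a small margin (adjusted p = 0.014 and 0.038). FANCD2 lost the call under 5 of the 10 alternatives (highest adjusted p = 0.509) and FANCI without replicate 1 (adjusted p = 0.475).

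End joining held both the highest genes of the set and some of the lowest. XRCC5, which encodes Ku80, had 625, 608, 624.5 and 587.5 CPM, and XRCC6, which encodes Ku70, had 432, 459, 471 and 422 CPM. Replicate 4 was the lowest library of both. The other 5 genes of this route had means of 10.9 to 55.4 CPM. XRCC4, the scaffold of the ligase, had 13.8, 15.2, 12.6 and 13.3 CPM, and LIG4, the ligase itself, had 15.6, 16.7, 15.9 and 15.3 CPM. NHEJ1, also called XLF, which stimulates that ligase, had 10.0, 11.9, 10.9 and 10.8 CPM. DCLRE1C, the Artemis nuclease that opens hairpin ends, had 13.2, 11.3, 10.2 and 12.6 CPM and the widest range of the set, 1.29 times. POLQ, the polymerase of the alternative route that joins ends by short homology, had 58.3, 49.6, 51.9 and 61.8 CPM, high in replicates 1 and 4. Of the 7 genes 5 varied, near the 73.5% of genes with at least the mean count of RAD51B. LIG4 and NHEJ1 did not pass (chi-square test, adjusted p = 0.516 and 0.135). DCLRE1C lost the call without replicate 3 (adjusted p = 0.07) and XRCC4 without replicate 2 or 3 and with plain totals (highest adjusted p = 0.408).

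Levels of 18 pairs of genes that share a complex or a step were compared within each library per kilobase of exon. The same gene was the higher one in 4 of 4 libraries in 15 pairs. The exact two-sided sign-flip permutation test gave p = 0.13 for each of these, the smallest that 4 libraries allow, and 0.15 after Benjamini-Hochberg adjustment over the 18 pairs, so it cannot reach 0.05. The remaining 3 pairs, MRE11A with RAD50, BRCA2 with PALB2 and TP53BP1 with BRCA1, had mean log2 ratios of -0.01 ± 0.06, 0.01 ± 0.10 and -0.03 ± 0.08, which is within their spread. The choice of length decided several other orders. Under 3 definitions of length (all annotated exons, the longest transcript, the longest coding sequence) 10 pairs kept their direction and 8 did not.

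The 10 pairs that kept their direction were led by RNF168 over RNF8, with a log2 ratio of 2.39 ± 0.08 per kilobase of exon, 2.17 per kilobase of longest transcript and 1.86 per kilobase of coding sequence. RAD51C over RAD51B (2.27 ± 0.15), MUS81 over GEN1 (1.66 ± 0.24) and NBN over RAD50 (1.26 ± 0.10) came next on the exon scale. RAD54L exceeded RAD54B (0.98 ± 0.09), CHEK1 exceeded CHEK2 (0.97 ± 0.18) and EXO1 exceeded DNA2 (0.79 ± 0.19). FANCI over FANCD2 had 0.74 ± 0.08 and XRCC4 over LIG4 0.50 ± 0.09. BLM was below WRN by 0.97 ± 0.11, a log2 ratio of -0.97. For Ku the order turned on length. XRCC6 exceeded XRCC5 by 0.28 ± 0.06 per kilobase of exon and by 0.02 per kilobase of longest transcript, and the ratio was -0.19 per kilobase of coding sequence. ATM to ATR went from -0.16 ± 0.04 to 0.11 and 0.57 on those 3 scales, and BRCA1 to BARD1 from 0.24 ± 0.05 to 0.44 and -0.44.

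**Figure D2:**
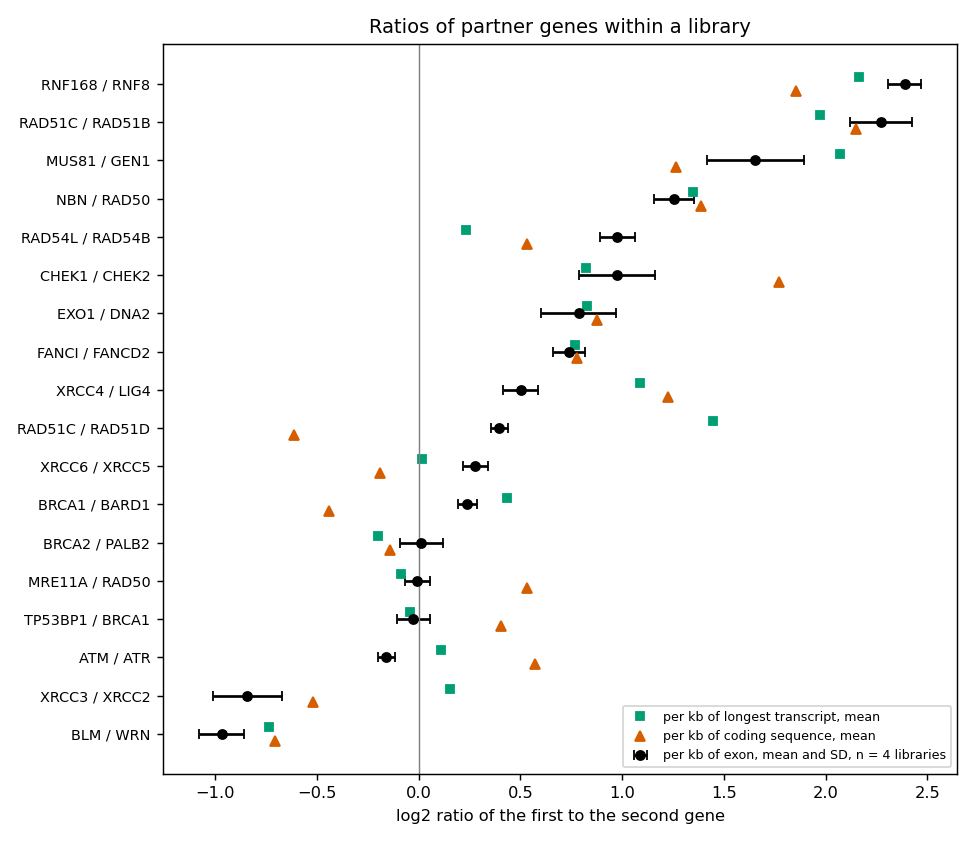
Log2 ratio of 18 gene pairs within a library, from per kilobase of exon (black, mean and SD over 4 libraries), of longest transcript (green squares) and of coding sequence (orange triangles). Pairs at the top, such as RNF168 to RNF8 at 2.39, stay right of 0 on all 3 scales, while pairs near 0 such as ATM to ATR change side.

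Variation between libraries was common in the set but small. Of the 52 genes 36 (69.2%) varied beyond counting noise at an adjusted p under 0.05. The share was 59.2% over all 16790 genes that average at least 10 counts and 73.5% over the 10914 genes with at least the mean count of RAD51B, the lowest member, so the set lay within the range of the table. In the set 9 genes (17.3%) varied and had a highest library at least 1.2 times the lowest, against 32% of all genes tested and 31.6% of those with at least the count of RAD51B. They were DCLRE1C, BRIP1, BLM, POLQ, MUS81, FANCF, MDC1, XRCC4 and CHEK2. Without replicate 2 this count was 3 (5.77%), against 19.4% of all genes tested. With plain totals in place of effective library sizes it was 21 (40.4%), against 33.2%, so the set lay below all genes on the main scale and above them with plain totals. A range of 1.5 times was reached by 0 of the 52, and the share of all genes with that range was not computed. In bins of count, the 90th percentile of all genes was 1.41 times at a median count of 438 and 1.25 at 4052. RNF168, TP53BP1, RAD52, WRN and FANCB passed the test with plain totals and with no other setting. RAD51B had a range of 1.24 times that its counts could not tell from counting noise. The median SD of log2 CPM was 0.09 in the set and 0.10 in genes of at least the count of RAD51B.

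**Figure D3:**
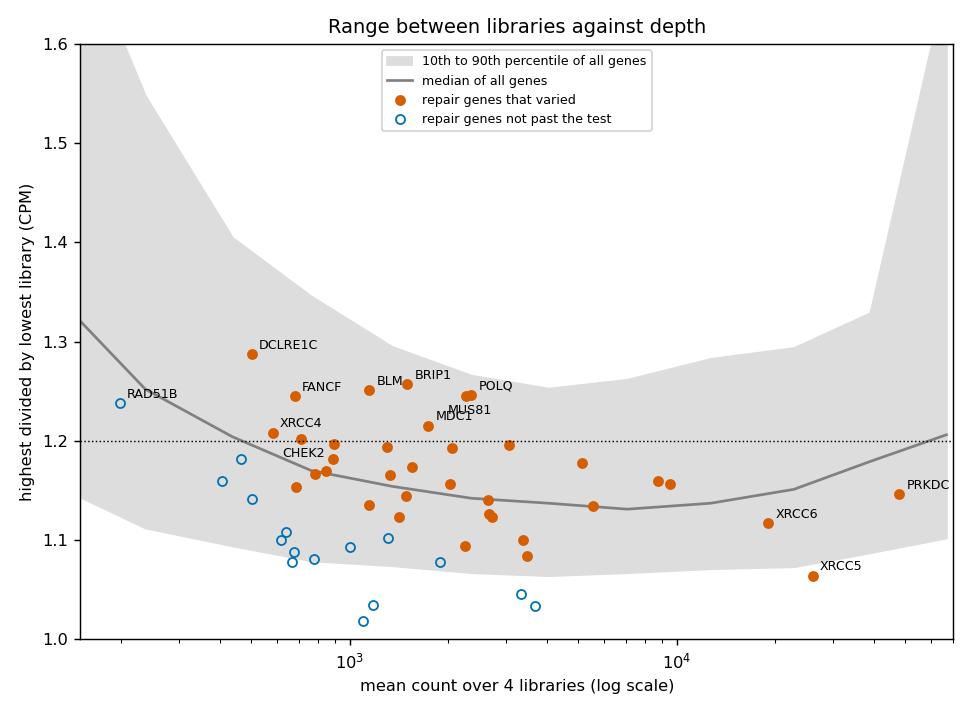
Highest divided by lowest library (CPM) against the mean count over 4 libraries (log axis). Filled points varied in the chi-square test, open points did not pass, and the grey band and line give the 10th to 90th percentile and median of all genes in bins of count. The 52 genes lie between 1.02 and 1.29, and the dotted line marks 1.2.

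The members did not spread evenly over libraries. Replicate 1 was the highest library for 25 of the 52 genes (48.1%) against 26.2% of genes with at least the count of RAD51B, and replicate 3 for 3 (5.77%) against 18.1%. Replicate 3 was the lowest library for 20 (38.5%) against 14.5%, and replicate 2 for 16 (30.8%) against 25.4%. The median deviation of the members from their own mean log2 CPM was 0.04, -0.02, -0.04 and 0.02 in replicates 1 to 4. Over genes with at least the count of RAD51B it was -0.0039, 0.02, 0.01 and -0.03. The differences are a few percent in CPM, and this is a description with no test. The deviation above the mean in replicate 4 was not kept without replicate 3 (-0.01), and that in replicate 2 ran from -0.0055 without replicate 1 to -0.0372 without replicate 3. The role groups differed in this. The BRCA genes had median deviations of 0.09, -0.02, -0.10 and 0.01, and the signalling kinases 0.08, -0.09, -0.04 and 0.06. The end joining genes had 0.01, 0.04, 0.0006 and -0.04.

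Gene length moved with these deviations. In replicate 2 the 26 members with the longer exonic length had a median deviation of -0.08 and the 26 with the shorter had 0.02. Genes of the whole table with at least the mean count of RAD51B, split at the same length, had -0.03 and 0.06. The Spearman correlation of the deviation in replicate 2 with exonic length was -0.48 over the 52 members and -0.48 over the table, and in replicate 4 it was 0.37 and 0.43. In replicate 1 it was 0.24 and 0.28. These are correlations across genes within a library, given as a description, since genes share the library. In replicate 2, 22 of the 26 longer members were below their own mean, among them ATM and BRIP1, and so were 12 of the 26 shorter ones, among them EXO1, DNA2 and XRCC2. The 4 longer members above their mean were XRCC3, FANCC, RAD51D and RNF8. Those named here were chosen after their values were seen, and the matching counts over the table were not made. The part of length in the spread of the members was not tested. In replicate 3 the deviation of the members had a Spearman correlation of -0.03 with length, against -0.20 over the table, and longer and shorter members were both below 0 (-0.06 and -0.04).

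**Figure D4:**
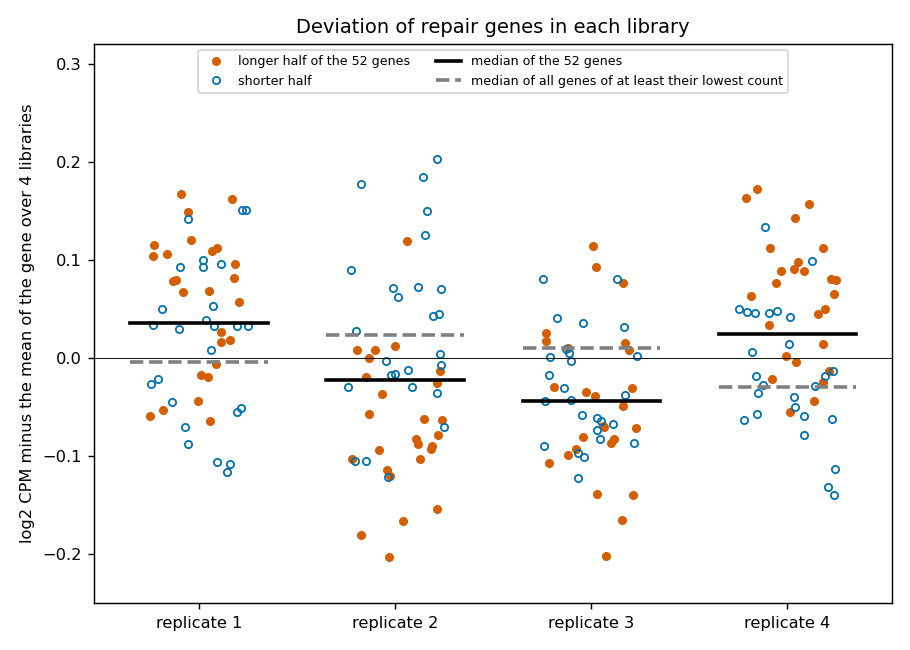
Deviation of each of the 52 genes from its own mean log2 CPM, by library, for genes above (filled) and at or below (open) the median exonic length of the set. Black bars are medians of the set (0.04, -0.02, -0.04 and 0.02) and dashed grey bars those of the 10914 genes with at least the count of the lowest member. Filled points sit low in replicate 2 and high in replicate 4.

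Other genes of the same pathways, a list of 80, were detected in 78 cases with a median of 6.27 CPM per kilobase of exon. The 3 highest of the list per kilobase were the break-marking histone H2AX (80.5), the cohesin kleisin RAD21 (58.5) and the helicase RECQL (39.1). SWSAP1 had 0.982 ± 0.176 CPM, and DNTT, the polymerase that adds bases in lymphocyte receptor genes, had 0 counts in every library. Of 79 genes tested 56 (70.9%) varied, and 29 (36.7%) did so by at least 1.2 times, against the 59.2% and 32% of all genes given above. Over genes with at least the mean count of RAD51B the shares were 73.5% and 31.6%, though some of the list had fewer counts than that.

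A protein-coding gene started within 1000 bases on the other strand for 22 of the 52 members, with 23 such neighbours. Starts are the outermost GENCODE starts, which need not be the ones used in these cells. The RefSeq start lies 40359 bases away for RAD52 and 1764 for RAD51D, both among the 22. The share of all protein-coding genes with such a neighbour was not computed. PRKDC and the replicative helicase subunit MCM4 start 2 bases apart, and had 73.0 and 28.7 CPM per kilobase of exon. XRCC6 and its neighbour DESI1 start 23 bases apart, though the RefSeq start of XRCC6 lies 176 bases from the GENCODE start. XRCC6 and DESI1 had 135.7 and 14.2 CPM per kilobase. LIG4 and ABHD13, 11 bases apart, had 3.61 and 4.95. ATM and NPAT, a regulator of histone genes, had 9.38 and 7.59 CPM per kilobase, and NPAT was also highest in replicates 1 and 4, at 62.1, 53.5, 53.4 and 59.8 CPM. Neighbours were not always expressed. BRCA2 was at 5.91 CPM per kilobase while ZAR1L, 130 bases away, had counts in 1 library only, and IL5 beside RAD50 was at 0.0245 CPM. In all, 6 of the 23 neighbours were under 1 CPM, and 8 exceeded their member per kilobase, among them DCTN5 beside PALB2 (9.10 against 5.84).

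Exons of 31 members share bases with another row, and use of strand is not given in the sources used here, so reads over such bases cannot be assigned with certainty. The share was 10% or more of the exonic bases for 10 members. It was 76.7% for XRCC3, which lies opposite KLC1 (123 CPM), 28.7% for TP53BP1 opposite TUBGCP4, 25.1% for RAD54L opposite LRRC41 (117 CPM) and 23.6% for FANCA opposite ZNF276. It was 18.7% for FANCL (15.6 CPM) opposite VRK2 (20.8 CPM), and the part of VRK2 reads in the values of FANCL was not tested. ATR shares 16.4% and FANCF 11.3%, both opposite rows under 1 CPM. It was 13.9% for MUS81, opposite the actin-binding gene CFL1 at 753 CPM, the highest overlapping level of the 10. RAD54B shares 59.1% with FSBP, and NHEJ1 shares 65.4% with the row RP11-33O4.2, both on the same strand and both rows under 1 CPM. Pseudogene rows named for CHEK2, FANCD2, XRCC6, RBBP8 and DCLRE1C held 0 to 0.101 CPM, far below those members. Without the 10 members, 30 of 42 varied, near the 73.5% of genes with at least the mean count of RAD51B.

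Promoter windows of 300 bases (250 before to 50 after the RefSeq start, GRCh38.p14) were matched for 44 of the 52 members. Those without a window were PRKDC, XRCC5, NBN, WRN, RECQL4, RAD54B, DNA2 and FANCI, so the shares below do not cover them. Letters bound by E2F, the factors that switch on replication genes in late G1, were searched on both strands in the forms TTGGCGC or TTCGCGC, and also TTCCCGC or TTGGCGG. At least 1 was found in 22 of 44 members (50%), against 18.4% of 15843 protein-coding promoters. CCAAT, the NF-Y letters, was found in 20 (45.5% against 36.4%), and CCGGAA, the ETS letters, in 18 (40.9% against 22.9%). GCATGCG (NRF1) was in 4 (9.09% against 5.14%) and TTTGAA (the cell cycle homology region) in 6 (13.6% against 12.1%). TTGGCGG and CCAAT can overlap on opposite strands, as can TTCCCGC and TTGGCGG. The median GC content was 64.3% in the members and 62.7% in all, and its part in these shares was not tested. A match of letters is a description, not a binding site. The 100 bases before the start are shown for 6 of the 8 members with E2F letters there, to show where the letters lie. The other 2, RAD51D and FANCC, are left out because their RefSeq start lies 1764 and 109087 bases from the GENCODE start, against at most 74 for the 6. Both count among the 22 members with E2F letters, as do MUS81 and RAD52, whose starts lie 3307 and 40359 bases apart. Capitals mark the E2F, NF-Y and ETS letters, read 5′ to 3′ in the direction of the gene.
RNF168 (chr3:196503769-196503868, reverse strand): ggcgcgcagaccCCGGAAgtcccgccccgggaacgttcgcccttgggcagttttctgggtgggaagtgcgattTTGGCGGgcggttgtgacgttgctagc
RAD54L (chr1:46247588-46247687, forward strand): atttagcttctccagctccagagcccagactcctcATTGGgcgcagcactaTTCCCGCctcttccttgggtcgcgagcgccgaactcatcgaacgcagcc
BLM (chr15:90717246-90717345, forward strand): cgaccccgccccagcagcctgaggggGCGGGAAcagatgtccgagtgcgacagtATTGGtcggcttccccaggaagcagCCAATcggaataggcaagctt
FANCG (chr9:35079943-35080042, reverse strand): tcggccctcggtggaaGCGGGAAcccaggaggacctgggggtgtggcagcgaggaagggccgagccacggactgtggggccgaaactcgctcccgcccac
FANCL (chr2:58241326-58241425, reverse strand): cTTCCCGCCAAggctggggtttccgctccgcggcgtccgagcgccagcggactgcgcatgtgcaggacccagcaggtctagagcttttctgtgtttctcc
BRIP1 (chr17:61863529-61863628, reverse strand): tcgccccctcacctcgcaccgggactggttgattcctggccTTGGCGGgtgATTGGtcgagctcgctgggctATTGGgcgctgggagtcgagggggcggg
BLM, BRIP1 and RAD54L hold E2F and NF-Y letters in the same 100 bases, and in FANCL 2 matches overlap on opposite strands at the far end of the window.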

How the data were processed

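RNA was measured in 4 libraries of 1 group. RSEM 1.3.3, Bowtie2 2.5.4, Trimmomatic 0.39, DESeq2 1.46.0 and the build GRCh38 are named in the submitters' processing notes. The sources used here do not say what each tool did, which annotation was used or how strand was set. The table that the authors deposited holds expected counts per Ensembl gene, not scaled between libraries, a unit read from the values.

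Counts were rounded, and CPM used effective library sizes (edgeR 4.0.16, TMM). Variation between the 4 libraries was tested gene by gene with a chi-square test of equal shares, for genes averaging at least 10 counts. P-values were adjusted over all these genes (Benjamini-Hochberg, threshold 0.05). The procedure was also run on simulated counts with counting noise only, the noise that the test assumes, so that run covers no other spread. Logs used a pseudocount of 0.01 CPM. Exonic, transcript and coding lengths and positions came from GENCODE release 29 (94.03% of IDs found), whose release may differ from the authors', and promoters from RefSeq (GRCh38.p14). Reads of 1 amplified molecule are not independent, so counting limits (3 counts for a 0) cover counting error only.

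All members are named, with the values of each library for the first and last gene of a role, genes that varied by 1.2 times or more and genes of the pairs, and values of some others were added after they were seen. In the other pathway list the 3 highest per kilobase, the lowest and genes at 0 are named (likewise for germ cell genes), with SWSAP1 added after its values were seen. The values of 1 gene of that list are not reported here. Members and lists were chosen with earlier results of these data known. Alternatives covered normalization, filters, the test statistic, length and each library left out. The planned lengths from RefSeq proteins and counts of phosphorylation motifs in proteins were not run, as no protein table was used here. Coding length from GENCODE, the removal of overlapping members and the shares of all genes under other settings were chosen after seeing the data.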

Additional observations from a re-analysis of the deposited data

Results flagged for a closer look

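Of 70 sets of 4 values checked for 1 library far from the other 3 (52 genes and 18 ratios), 1 stood out, and chance flags about 1 in 20. The log2 ratio of RNF168 to RNF8 per kilobase of exon was 2.51 in replicate 3 and 2.34 to 2.35 in the others. RNF8 was at its lowest there, at 16.8 CPM, while RNF168 was at 77.7 CPM.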

How the results depend on the processing

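No paired analysis was possible because the study has 1 group. Detection of the 52 genes held under all 8 alternatives run (other normalizations, thresholds of 0.5 and 2 CPM, each library left out). The count of 36 varying genes ranged from 28 to 38 over its alternatives. Without replicate 1 it was 28 (53.8%), against 49.3% of all genes tested and 60.9% of those with at least the count of RAD51B. Without replicate 2 it was also 28, against 48.8% and 62.5%. With plain totals it was 38 (73.1%), against 60.2% and 74.1%. Of the 36 genes 17 kept the call under every alternative, 11 genes passed under no setting, and 24 changed side at least once. The matching counts over all genes were not computed, so these do not set the members apart. The count with a range of 1.2 times or more was 12 with DESeq2 size factors, 21 with plain totals, 0 at 1.5 times, and 3 to 9 with 1 library left out. The share of all genes with a range of 1.2 times or more was 32.1% with DESeq2 size factors and 33.2% with plain totals. With 1 library left out it was 19.3% to 29.9%. The library deviation in replicate 2 was -0.0768 with plain totals and -0.0055 to -0.0372 with 1 library left out, and that in replicate 4 ranged from -0.0131 (without replicate 3) to 0.0266 with 1 library left out. The median per kilobase was 12.4 CPM over coding length, which is shorter than exonic length. Log2 ratios turned over coding length for MRE11A to RAD50 (0.53), BRCA1 to BARD1 (-0.44), BRCA2 to PALB2 (-0.14), XRCC6 to XRCC5 (-0.19), ATM to ATR (0.57), RAD51C to RAD51D (-0.61) and TP53BP1 to BRCA1 (0.40). Over the longest transcript they turned for BRCA2 to PALB2 (-0.20), ATM to ATR (0.11) and XRCC3 to XRCC2 (0.15). Without division by length they turned for XRCC6 to XRCC5 (-0.46), XRCC4 to LIG4 (-0.21), ATM to ATR (0.78), RAD51C to RAD51D (-0.50) and TP53BP1 to BRCA1 (0.47). With 1 library left out, MRE11A to RAD50 ranged from -0.0359 to 0.0137 and BRCA2 to PALB2 from -0.0165 to 0.0606. The other pair ratios, medians and library deviations kept their direction under the alternatives run. The cause was not tested beyond the change of length itself. Depth limits RAD51B (170 to 212 counts) most.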
